A study of Mus musculus with 2 samples.

Results

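Mouse embryonic stem cells with high and with low Nanog mRNA were compared within the Oct4-positive cells of 2 single-cell RNA sequencing libraries. A barcode was kept as a cell from 18000 unique molecular identifiers (UMIs, the counted RNA molecules) and 1000 genes upward, with no more than 10% of its UMIs from mitochondrial genes. It was Oct4-positive if it had at least 10 UMIs of Pou5f1, the gene of Oct4, and under 50 summed UMIs of the fibroblast genes Col1a1, Col1a2, Bgn, Mgp and S100a4. Nanog-high cells had at least 200 Nanog counts per 1000000 UMIs (CPM), Nanog-low cells at most 40 CPM, and the cells in between were called intermediate. At time 1, 4021 of 24551 Oct4-positive cells were Nanog-high (16.4%, exact Clopper-Pearson 95% interval 15.9 to 16.8%) and 4857 were Nanog-low (19.8%, 19.3 to 20.3%). At time 2, 3637 of 27078 were Nanog-high (13.4%, 13.0 to 13.8%) and 6003 were Nanog-low (22.2%, 21.7 to 22.7%). Together the classes held 18518 of the 54279 cells of both libraries that passed the depth, gene and mitochondrial limits.

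The cells belonged to the inbred C3H/HeSn-Paf/J strain and came from 9 embryonic stem cell lines, 3 each derived from XX, XO and XY embryos, which were mixed before capture. They were grown in serum and leukaemia inhibitory factor (LIF) on gelatin and irradiated mouse embryonic fibroblasts, called feeders. Time 1 is an early passage of the mixed culture and time 2 lies 10 passages later, and the labels name no other treatment. Each time point is 1 library, and the cells could not be assigned to lines here, so a Nanog class and the lines that fill it cannot be told apart. Cells are not replicates, so no test was made between the classes, and all intervals cover counting error only.

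Nanog is a homeodomain transcription factor that, with Oct4 and Sox2, forms the core of the network that keeps embryonic stem cells pluripotent. In serum and LIF its level is known to vary between cells of a culture, and cells can pass between high and low states while Oct4 stays present. High Nanog is known to go with the naive state of the early epiblast, whereas epiblast cells after implantation, called primed, use genes such as Fgf5, Pou3f1 and Dnmt3b.

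Nanog lies on chromosome 6 at 122707489 to 122714633 of GRCm38, on the plus strand (GENCODE M21). The 250 bases before its start are shown because they hold a match to the joined Sox2 and Oct4 motif (CATTGT, any base, then ATGC) through which the core factors are known to act on Nanog, and those before Sox2 because Sox2, which is known to bind with Oct4 at such motifs, also differed in level between the classes. Both are from RefSeq (GRCm38.p6), 5′ to 3′ on the plus strand, at chr6:122707239-122707488 and chr3:34649745-34649994. Capitals mark the match to the joined motif, here on the other strand, in the Nanog window, and to the 7-base motif ATGCAAA in the Sox2 window.
Nanog: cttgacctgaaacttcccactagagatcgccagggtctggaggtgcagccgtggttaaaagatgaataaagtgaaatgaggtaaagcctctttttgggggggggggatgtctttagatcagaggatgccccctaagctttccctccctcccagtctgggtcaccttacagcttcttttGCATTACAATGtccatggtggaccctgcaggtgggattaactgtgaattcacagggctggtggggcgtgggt
Sox2: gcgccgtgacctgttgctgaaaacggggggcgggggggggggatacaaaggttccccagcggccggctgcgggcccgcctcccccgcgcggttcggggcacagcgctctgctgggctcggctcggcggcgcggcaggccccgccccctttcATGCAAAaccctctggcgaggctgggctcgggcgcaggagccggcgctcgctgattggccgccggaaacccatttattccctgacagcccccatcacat
The Nanog match spans the bases 72 to 62 before the gene start, and the Sox2 match those 99 to 93 before it. Both strands of 32851 RefSeq windows of the same length were searched. The joined motif occurred in 19 of them (0.0578%), ATGCAAA in 1355 (4.12%) and CATTGT, the Sox motif held within the joined one, in 3512 (10.7%). Of the 12 genes with the largest ratios in favour of Nanog-high cells named further on, 6 had a window in the table and none of these held any of the 3 motifs. Of the 12 lowest, 8 had a window and 1, Cnn1, held CATTGT. A match is a sequence and not a measured binding site.

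The measured Nanog level per cell had no gap at either limit, so the classes are ranges of a measured level. With so few Nanog UMIs per cell, counting error alone would fill a gap. The median over Oct4-positive cells was 96.9 CPM at time 1, with quartiles of 49.1 and 162, and 87.8 CPM at time 2, with quartiles of 45.2 and 148. The Nanog-high cells nearest to the limit had 200.013 CPM at time 1 and 200.011 at time 2, and the nearest cells outside had 199.988 and 199.993. The Nanog-low cells nearest to theirs had 39.9992 and 39.9952 CPM, and the nearest cells outside had 40.0016 in both libraries. Within 10 CPM of the upper limit lay 444 Nanog-high cells and 487 intermediate cells at time 1, and 390 and 484 at time 2. Of the Nanog-low cells, 35.9% at time 1 and 33.6% at time 2 had no Nanog UMI at all, and the median Nanog-low cell had 1 UMI, against 12 and 15 in Nanog-high cells.

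**Figure D1:**
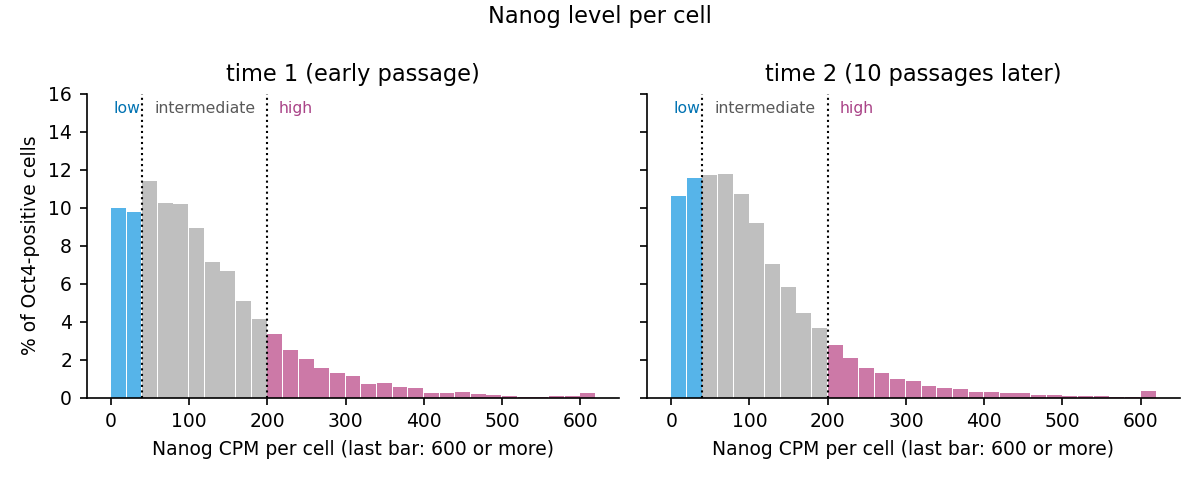
Share of Oct4-positive cells (vertical axis, percent) by Nanog CPM per cell (horizontal axis, bars of 20 CPM, the last bar all cells of 600 or more), 1 panel per library. Dotted lines mark 40 and 200 CPM; the bars fall off to the right with no second peak near either limit.

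Since a class cut from a few UMIs selects for chance as well as for level, the UMIs of every cell were divided at random into 2 sets, the first to set the class and the second to read the level. Summed over all UMIs, Nanog stood at 297 CPM in Nanog-high and 19.3 CPM in Nanog-low cells at time 1, a 15.4-fold difference that the choice of cells fixes. Read in the second set, the levels were 236 CPM (exact Poisson 95% interval 233 to 238) and 56.3 CPM (55.2 to 57.5), a 4.18-fold difference. At time 2 they were 239 CPM (237 to 242) and 53.4 CPM (52.4 to 54.4), or 4.49-fold, with intermediate cells at 102 CPM. Classes set this way thus differed in Nanog in UMIs that did not choose them, by less than the limits imply. They rest on fewer UMIs per cell and are not the same cells as the classes above. They held 4582 high and 6109 low cells at time 1 and 4199 and 6975 at time 2. Feeder cells, defined as cells with under 10 Pou5f1 UMIs and at least 200 summed UMIs of the 5 fibroblast genes, held 7.14 CPM of Nanog at time 1 (149 cells) and 3.83 CPM at time 2 (272 cells).

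The classes were alike in depth and quality. Median UMIs per cell were 44793 in Nanog-high and 46311 in Nanog-low cells at time 1, and 51226 and 48540 at time 2. Median mitochondrial shares were 2.34% and 2.37% at time 1 and 2.02% and 2.08% at time 2. Among the 10% of cells with the highest Scrublet scores, a measure of likely doublets, were 8.28% of Nanog-high and 7.45% of Nanog-low cells at time 1 and 6.96% and 5.26% at time 2. Pou5f1, on which the choice of cells also rests, was at 735 and 646 CPM at time 1 and at 817 and 750 CPM at time 2. In the libraries as a whole, 145288 and 52242 barcodes held 1735810403 and 1843588321 UMIs, and 171 barcode sequences occurred among the Oct4-positive cells of both libraries.

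In both libraries naive genes such as Tbx3, Klf4 and Esrrb were higher in Nanog-high cells, and Krt8, Krt18, Tagln and the primed epiblast gene Pou3f1 were higher in Nanog-low cells. Genes were compared as the log2 ratio of summed CPM plus 1, Nanog-high over Nanog-low, where either class had at least 10 CPM, leaving out the genes of the selection rule. A gene that reached 10 CPM in a single class could not count as higher in the other, so its direction is partly fixed by this minimum. At time 1, 365 of 7505 genes were at least 1.5-fold higher in Nanog-high cells (4.86%) and 272 at least 1.5-fold lower (3.62%). At time 2, 478 of 7192 were higher (6.65%) and 281 lower (3.91%). In either direction these were 8.49% of genes at time 1 and 10.6% at time 2. The median log2 ratio of all genes was -0.02 at time 1 and 0.01 at time 2. CPM sets both classes to the same total, so these medians say nothing of RNA per cell. When the classes were set on cells thinned to 18000 UMIs, where few Nanog UMIs remain per cell, the counts were 168 higher and 64 lower at time 1 and 251 and 134 at time 2.

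The libraries share no cells, and most differences found in one were present in the other. Both come from the same mixed lines and were cut by the same Nanog limits, so line make-up cannot be told apart from this agreement. Of the genes higher at time 1, 282 were also at least 1.5-fold higher at time 2, which is 77.3% of the time 1 list and 59.0% of the time 2 list. Over all genes, 6.65% were higher at time 2 and 4.86% at time 1. Of the lower genes, 169 were shared, or 62.1% of the time 1 list and 60.1% of the time 2 list, against 3.91% and 3.62% of all genes. Of the 272 lower genes of time 1, only 192 were measured at time 2. Among 6976 genes measured in both libraries, 0 passed 1.5-fold in opposite directions.

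**Figure D2:**
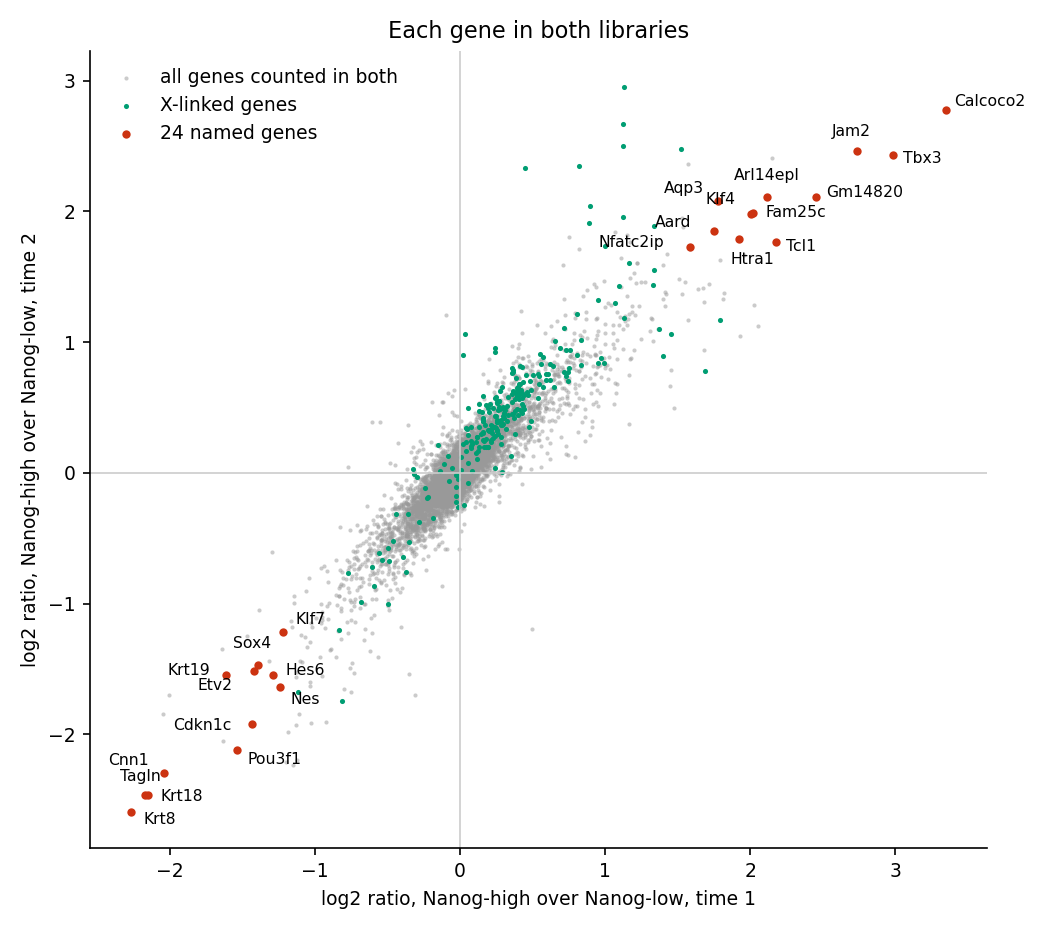
Log2 ratio of Nanog-high over Nanog-low cells at time 1 (horizontal axis) and time 2 (vertical axis) for 6976 genes measured in both libraries; red points are the 24 named genes and green points X-linked genes. The named genes lie along the diagonal at both ends, and many X-linked genes lie above 0 in both libraries.

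The largest ratio belonged to Calcoco2, which encodes an autophagy receptor. It stood at 171 CPM (169 to 173) in Nanog-high and 15.9 CPM (15.4 to 16.4) in Nanog-low cells at time 1, and at 279 CPM (277 to 281) and 39.9 CPM (39.2 to 40.6) at time 2, log2 ratios of 3.35 and 2.78. Thinned to 18000 UMIs per cell, 63.1% of Nanog-high and 20.7% of Nanog-low cells had a Calcoco2 UMI at time 1, against 5.37% of feeder cells. At time 2 the shares were 80.8%, 33.8% and 9.93%; without thinning, at median depths of 51226, 48540 and 50632 UMIs, they were 90.7%, 55.1% and 20.2%. A higher level by itself raises the share of cells with a UMI, so these shares add no count of expressing cells. The share in Nanog-low cells was above that in feeder cells in both libraries.

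Tbx3, a T-box factor of the naive network, was at 55.1 CPM in Nanog-high and 6.098 CPM in Nanog-low cells at time 1 and at 110 and 19.5 CPM at time 2, log2 ratios of 2.98 and 2.44. Jam2, a junctional adhesion molecule, was at 82.1 and 11.5 CPM at time 1 and at 104 and 18.1 CPM at time 2, log2 ratios of 2.74 and 2.46. Klf4, a Krüppel-like factor used in reprogramming, was at 108 and 26.2 CPM and then at 228 and 57.0 CPM, log2 ratios of 2.01 and 1.98. Tcl1, a coactivator of Akt kinase, was at 63.6 and 13.3 CPM and then at 69.7 and 19.8 CPM. For each of these genes the level in Nanog-low cells was higher at time 2 than at time 1. The intervals of the classes were far apart, but they cover counting error of summed UMIs only. Those of Pou5f1 at time 1, 731 to 738 and 643 to 649 CPM, did not overlap either, so separate intervals do not single out a gene.

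The other 7 of the 12 genes ranked highest were Gm14820, Arl14epl, Fam25c, Htra1, Aqp3, Aard and Nfatc2ip. Of these, Htra1 encodes a secreted serine protease and Aqp3 a channel for water and glycerol. Aqp3 had ratios (log2, time 1 then time 2) of 1.78 and 2.08, and Nfatc2ip, the lowest ranked, of 1.59 and 1.73. Gm14820 is X-linked, with log2 ratios of 2.45 and 2.11; the other 11 are autosomal. Klf4 and Htra1 were also abundant in feeder cells, at 133 and 136 CPM at time 1.

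Krt8 and Krt18, which pair in the intermediate filaments of simple epithelia, were with Tagln the 3 highest ranked genes that were higher in Nanog-low cells. Krt8 was at 46.0 CPM (45.1 to 46.9) in Nanog-high and 225 CPM (223 to 227) in Nanog-low cells at time 1, a log2 ratio of -2.27. At time 2 it was at 16.3 CPM (15.7 to 16.8) and 103 CPM (102 to 104), a log2 ratio of -2.59. Krt18 had log2 ratios of -2.15 and -2.46 and Krt19, another keratin of simple epithelia, -1.61 and -1.54. Keratins have near-identical copies in the genome, so reads shared between copies are a source of error that was not measured.

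Krt8 UMIs were not spread evenly over Nanog-low cells. After thinning, 58.9% of Nanog-low and 40.4% of Nanog-high cells had a Krt8 UMI at time 1, against 16.1% of feeder cells, and 30.4%, 13.4% and 6.25% at time 2. The tenth of Nanog-low cells with the most Krt8 UMIs held 61.9% of all Krt8 UMIs of the class at time 1 and 83.9% at time 2. For Calcoco2 in Nanog-high cells the same shares were 44.9% and 37.8%.

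Tagln and Cnn1, actin-binding proteins best known from smooth muscle, were lower in Nanog-high cells, with log2 ratios of -2.17 and -2.47 for Tagln and -2.04 and -2.30 for Cnn1. Tagln was at 80.9 CPM in Nanog-high and 367 CPM in Nanog-low cells at time 1 and at 29.0 and 165 CPM at time 2. Feeder cells held far more Tagln, 4388 CPM at time 1 and 3484 at time 2, so feeder RNA was examined beside it. Of 9 feeder markers that the selection did not use, Col3a1, Lum, Dcn and Postn lay at or below 0.529 CPM in both classes of both libraries. Fn1 was at 90.2 and 77.8 CPM in Nanog-high and Nanog-low cells at time 1 and at 111 and 122 CPM at time 2. Lgals1 was at 148 and 186 CPM and then at 126 and 158 CPM. Of the 4 feeder markers measured, Tagln and Acta2 were past 1.5-fold lower in Nanog-high cells in both libraries, with a median log2 ratio over the 4 of -0.68 and -0.57. Without cells that carried at least 10 UMIs of other lineage lists, Acta2 was at -0.36 and -0.52, short of 1.5-fold, and the median at -0.19 and -0.33. Those lists are primitive endoderm, mesendoderm, trophoblast and 2-cell-like. The limit was not scaled to depth, so deeper cells reach it more easily and a removed cell need not be of another lineage. The part of feeder RNA in these differences was not tested.

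Pou3f1, a POU factor of the primed epiblast also called Oct6, was at 39.9 CPM in Nanog-high and 118 CPM in Nanog-low cells at time 1 and at 13.9 and 63.6 CPM at time 2, log2 ratios of -1.53 and -2.12. Cdkn1c, an imprinted inhibitor of cyclin-dependent kinases, was at 15.5 and 43.4 CPM and then at 10.1 and 41.1 CPM. The other genes ranked lowest were Etv2, an ETS factor of blood and vessel precursors, Sox4, Hes6, Klf7 and Nes, the intermediate filament nestin of neural precursors. Their log2 ratios lay between -1.22 for Klf7 and -1.42 for Etv2 at time 1, and between -1.22 and -1.64 at time 2.

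The named genes were chosen for their ratio between the ends of the Nanog range, so the steps between are given as a description. In 5 ranges of Nanog CPM (up to 40, over 40 to under 100, 100 to under 200, 200 to under 300, and 300 or more), each of the 12 higher genes increased and each of the 12 lower genes decreased at every step, in both libraries. Over all genes measured, 15.2% increased and 21.1% decreased at every step at time 1, and 21.6% and 20.6% at time 2. Calcoco2 went from 15.9 through 27.9, 57.9 and 125 to 255 CPM at time 1. Krt8 went from 225 through 155, 101 and 54.3 to 30.8 CPM. The ranges held 1276 to 9267 cells each.

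**Figure D3:**
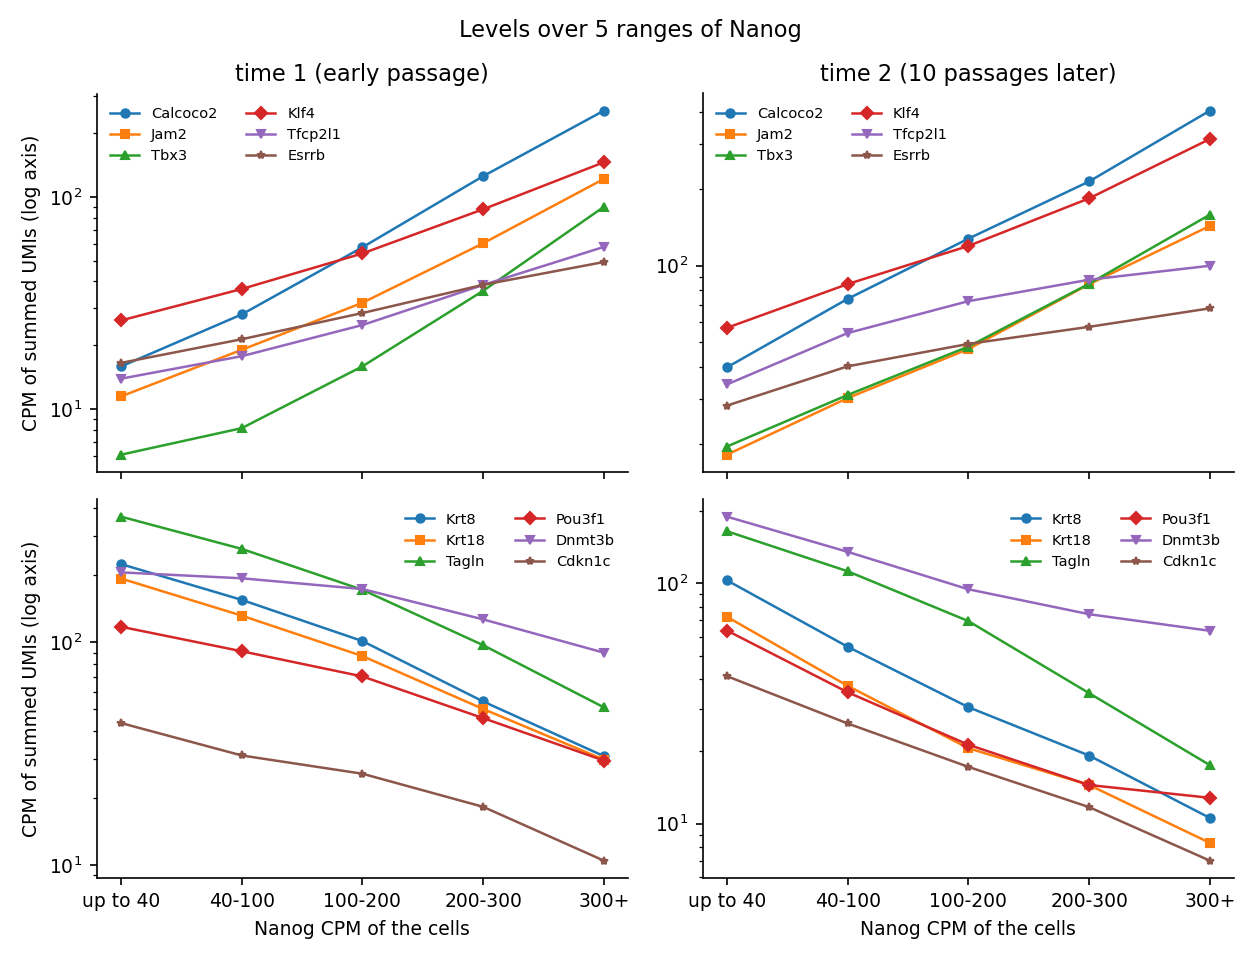
CPM of summed UMIs (log axis, a different range in each panel) of 6 genes higher and 6 genes lower in Nanog-high cells, over 5 ranges of Nanog CPM (horizontal axis), with time 1 on the left and time 2 on the right. Every line in the upper panels rises and every line in the lower panels falls; Calcoco2 reaches 255 CPM at time 1 and Krt8 ends at 30.8 CPM.

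Most genes of the naive list were higher in Nanog-high cells. Of 15 listed naive genes, 13 were measured at time 1 and 12 of them were at least 1.5-fold higher in Nanog-high cells, with a median log2 ratio of 1.47 against -0.02 for all genes. Tbx3 at time 1 reached 10 CPM only in Nanog-high cells, so it could not have counted as lower. At time 2, 11 of 14 were higher, with a median of 1.07 against 0.01. Calls lost within X-low cells, defined further on by the dosage of X-linked RNA, are given beside each list; here it was Klf5, a Krüppel-like factor, at 0.65 and 0.72 and within X-low cells at 0.18 and 0.46. Beside Tbx3, Klf4 and Tcl1, the nuclear receptor Esrrb was at 42.4 and 16.5 CPM at time 1 and at 61.1 and 28.2 CPM at time 2. Tfcp2l1, a factor that acts downstream of LIF, was at 45.4 and 13.9 CPM and then at 92.1 and 34.2 CPM. Dppa3, an oocyte and early embryo factor that neighbours Nanog on chromosome 6, did not pass 1.5-fold in either library (0.47 and 0.40). Zfp42 (0.91 and 0.40) and Tdh, the threonine dehydrogenase of mouse stem cells (1.47 and 0.50), passed it at time 1 and not at time 2; the differences between the libraries were not tested. With classes set on thinned cells, Zfp42 at time 1 (0.55) and Klf2 and Nr0b1 at time 2 (0.58 and 0.55) fell short of 1.5-fold, as did Klf5 in both libraries (0.43 and 0.52).

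Single cells overlapped in spite of these sums. The summed level of the 15 naive genes had a median of 1467 CPM over Nanog-high cells at time 1, with quartiles of 997 and 1915, and 643 CPM over Nanog-low cells, with quartiles of 356 and 1024. At time 2 the medians were 2141 and 1164 CPM. Of the Nanog-low cells, 8.85% at time 1 and 10.2% at time 2 exceeded the median Nanog-high cell. In turn 13.5% and 4.18% of Nanog-high cells lay below the median Nanog-low cell.

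Core pluripotency factors differed less. Of 7 genes, 3 were higher in each library, with medians of 0.42 and 0.40. Here and for the lists below, 4.86% of all genes were higher and 3.62% lower at time 1, and 6.65% and 3.91% at time 2. Sox2 was at 322 CPM in Nanog-high and 169 CPM in Nanog-low cells at time 1 and at 384 and 205 CPM at time 2, log2 ratios of 0.93 and 0.90. Foxd3, a forkhead factor, also passed 1.5-fold in both libraries (1.22 and 1.61), but not within X-low cells at time 1 (0.21). Sall4, Zfp281, Rif1 and L1td1 did not pass it; L1td1, an RNA-binding protein abundant in stem cells, had ratios of -0.003 and -0.02.

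Primed epiblast genes were partly lower in Nanog-high cells. At time 1, 0 of 10 measured members were higher and 4 were lower, with a median of -0.41; at time 2, 0 were higher and 7 lower, with a median of -1.30. Pou3f1, Sox4, Dnmt3a and Dnmt3b were lower in both libraries; within X-low cells at time 1 Dnmt3b was at -0.29, short of 1.5-fold. Otx2, a homeodomain factor of the epiblast, ran against most of the list in both, with log2 ratios of 0.39 and 0.38, short of 1.5-fold. Fgf5 and Fgf8, growth factors of the epiblast, were lower in Nanog-high cells at time 2 (-1.53 and -1.20), Fgf8 not within X-low cells (-0.55). At time 1 they had ratios of -0.35 and 0.49 and were most abundant in intermediate cells: Fgf8 was at 37.8 CPM in cells up to 40 CPM of Nanog, at 82.1 CPM in those of 100 to under 200, and at 32.1 CPM in those of 300 or more.

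Of the 7 measured genes of DNA methylation, 2 were higher and 2 lower in each library. The de novo methyltransferases Dnmt3a and Dnmt3b had log2 ratios of -0.74 and -0.85 at time 1 and -1.45 and -1.41 at time 2. Dnmt3b was at 114 CPM in Nanog-high and 206 CPM in Nanog-low cells at time 1 and at 70.6 and 189 CPM at time 2. The oxidases Tet1 and Tet2, which start the removal of methyl groups, had ratios of 0.93 and 1.27 at time 1 and 0.68 and 1.46 at time 2; within X-low cells at time 2 Tet1 was at 0.46, short of 1.5-fold. Dnmt1, Uhrf1 and Dnmt3l did not pass 1.5-fold. With classes set on thinned cells, Dnmt3a and Dnmt3b at time 1 and Tet1 at time 2 did not pass it either (-0.50, -0.50 and 0.47).

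Signalling lists were mixed. With 8.49% of all genes past 1.5-fold at time 1 and 10.6% at time 2, single calls in lists of this size say little. Fgf4, the main growth factor that mouse stem cells secrete, was higher in Nanog-high cells, at 64.3 and 23.5 CPM at time 1 and at 87.1 and 32.9 CPM at time 2. Of 9 genes of feedback on the MAP kinase pathway, 0 were higher in either library and 2 were lower at time 1 (Dusp4 and Egr1) and 1 at time 2 (Dusp6). None of these held within X-low cells, where Dusp4 was at -0.17, Egr1 at 0.077 and, at time 2, Dusp6 at -0.44. In the Nodal pathway, Lefty2 was higher in both libraries (0.73 and 0.63), whereas Lefty1, its neighbour gene and like it a secreted Nodal inhibitor, was at -0.57 and -1.41. Within X-low cells the ratio of Lefty2 was 0.36 and -0.11. With classes set on thinned cells Lefty2 was at 0.50 and 0.40, short of 1.5-fold. With separate UMIs for class and level it was at 0.58 at time 2, also short. Of the genes of bone morphogenetic protein and its targets, 4 were measured at time 1 and 5 at time 2, with 1 higher and 1 lower in each. The target Id1 was lower in both (-1.13 and -1.56), Id2 was higher at time 1 (0.91) and the ligand Bmp4 at time 2 (1.65). Within X-low cells at time 1 Id1 was at -0.47 and Id2 at 0.38, both short of 1.5-fold. Of 7 genes of the LIF pathway, its receptor genes Lifr (0.78) and Il6st (0.64) were higher at time 1, and 0 passed 1.5-fold at time 2. At time 1 both fell short within X-low cells (0.51 and 0.31) and with classes set on thinned cells (0.45 and 0.49). With separate UMIs for class and level Il6st fell short as well (0.55). Of 4 measured Wnt genes, 0 passed it at time 1 and Lef1 was lower at time 2 (-0.96).

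Of 13 S phase, 10 G2/M and 7 glycolysis genes, 0 passed 1.5-fold in either library; with 8.49% and 10.6% of all genes past it, few calls would be counted in lists of this size. Their medians lay between -0.21 and 0.10 in both libraries. Of 9 p53 targets, 0 passed at time 1 and Bbc3 was lower at time 2 (-0.59), and of the integrated stress genes Asns was higher at time 2 (0.59); within X-low cells they were at -0.51 and 0.48. Immediate early genes that respond to cell dissociation were lower in Nanog-high cells, 4 of 5 at time 1 (Fos, Jun, Junb and Atf3) and 2 of 5 at time 2 (Fos and Atf3). At time 1 within X-low cells Fos was at 0.058, Jun at -0.28 and Junb at -0.19. None of the 4 passed 1.5-fold at time 1 with classes set on thinned cells (-0.36 to -0.39, and Atf3 at time 2 at -0.54) or with separate UMIs for class and level (-0.49 to -0.58). Atf3 was at -0.57 and -0.37 without cells that carried other lineage genes, where Fos and Jun also fell short of 1.5-fold at time 1. In X-high cells at time 1 Atf3 was at -0.37, Jun at -0.52 and Junb at -0.55.

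Of the imprinted genes measured, 4 of 5 were lower in Nanog-high cells at time 1 and 2 of 4 at time 2. Meg3, a long non-coding RNA of the imprinted Dlk1-Dio3 region, was at 164 CPM in Nanog-high and 333 CPM in Nanog-low cells at time 1 and at 82.5 and 188 CPM at time 2, and Rian of the same region had ratios of -0.92 and -1.02. Both were also high in feeder cells, Meg3 at 1205 CPM at time 1. Within X-low cells at time 1, 3 of the 4 calls were lost, with Meg3 at -0.33, Rian at -0.39 and Mirg at -0.39. With classes set on thinned cells at time 1 only Meg3 of the 4 passed 1.5-fold, with H19 at -0.32, Rian at -0.55 and Mirg at -0.40. H19, lower at time 1, was at -0.59 and -0.54, and without cells that carried other lineage genes at -0.08 and 0.0016. That removal also takes cells for their depth, so which cells held the H19 difference was not tested. The part of feeder RNA was not tested here either.

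Genes of other lineages were mostly below 10 CPM in both classes. Of 10 primitive endoderm genes, 2 were measured at time 1 and neither passed 1.5-fold. At time 2 all 3 measured, Dab2 (-2.60), Col4a1 (-1.70) and Lamb1 (-0.97), were lower in Nanog-high cells. Dab2 and Col4a1 reached 10 CPM there only in Nanog-low cells, at 11.2 and 23.0 CPM, so they could not have counted as higher. Without cells that carried at least 10 UMIs of other lineage lists, the ratios at time 2 were -0.69 for Dab2, 0.42 for Col4a1 and -0.65 for Lamb1. These genes belong to the lists that removed the cells, so their change is partly fixed by that choice. The cells left out were 35.3% of Nanog-high and 23.9% of Nanog-low cells at time 1 and 24.3% and 17.0% at time 2. Of the lists used, the trophoblast list, which holds Tfap2c, had the largest sum in Nanog-high cells at time 1 (111 CPM). The cells left out are therefore not shown to be of other lineages. Gata6, Gata4 and Sox17, the defining factors of that lineage, stayed at or below 4.18 CPM in both classes of both libraries, below the 10 CPM at which genes were compared. At time 2 Gata6 was at 0.82 CPM in Nanog-high and 4.18 CPM in Nanog-low cells, Gata4 at 0.556 and 2.68 CPM and Sox17 at 0.438 and 1.37 CPM. Of the mesendoderm genes, T was at 2.61 CPM in Nanog-high and 10.1 CPM in Nanog-low cells at time 2, so it was measured only through Nanog-low cells. Eomes was just past 1.5-fold higher at time 1 (0.59), but not after thinning (0.43) or in X-high cells (0.42). It was measured at time 1 only through Nanog-high cells. Without cells that carried other lineage genes, T itself included, T at time 2 was at -0.56, short of 1.5-fold. Tfap2c, listed with trophoblast and also known from naive cells, was higher in both libraries (0.94 and 0.90). In X-high cells it was at 0.57 at time 1 and -0.00026 at time 2, and in time 2 cells without chromosome gains at 0.48, all short of 1.5-fold. No gene of the 2-cell-like list reached 10 CPM. The genes around Nanog (Slc2a3, Dppa3, Gdf3 and Necap1) had ratios between 0.19 and 0.47 at time 1 and between 0.31 and 0.70 at time 2. Of these Slc2a3 passed 1.5-fold at time 2, though not within X-low cells (0.47), within X-high cells (0.26) or after thinning (0.53).

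**Figure D4:**
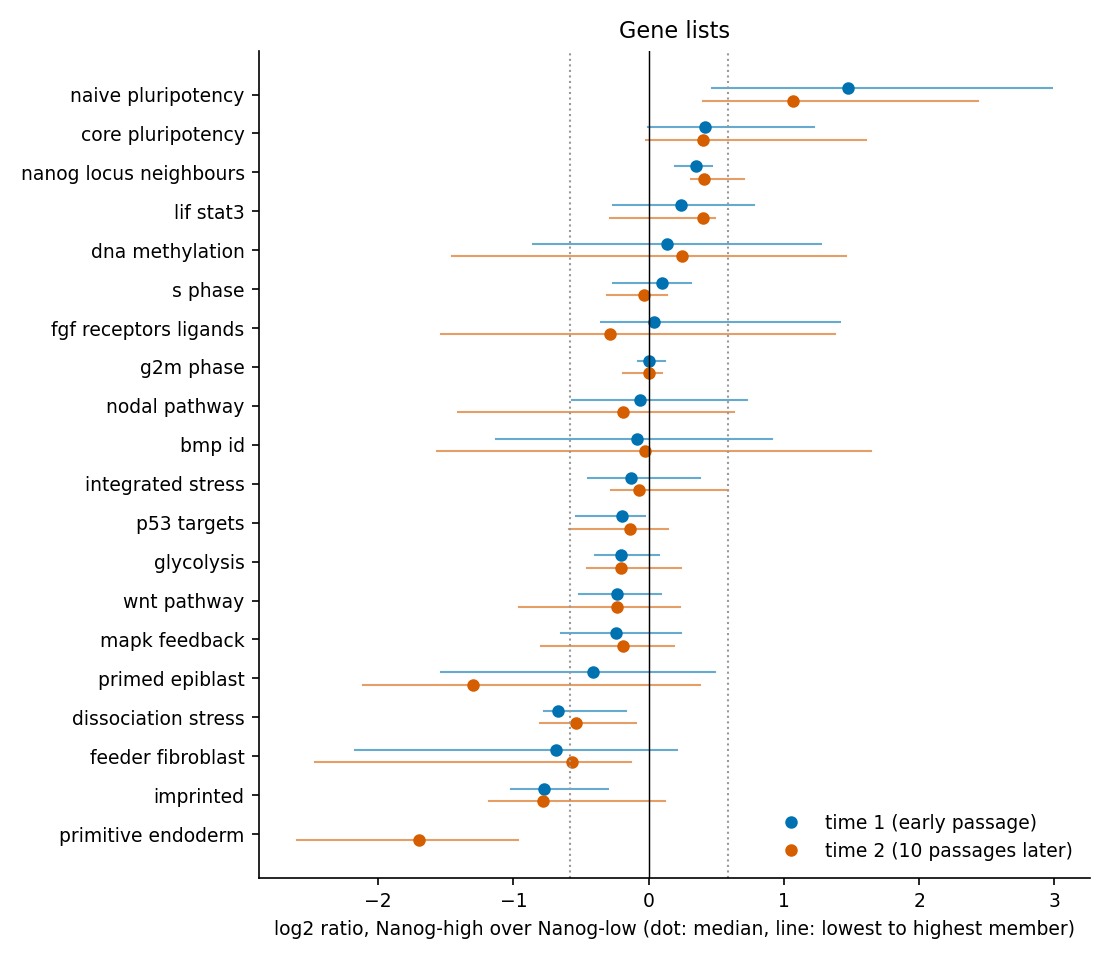
Log2 ratio of Nanog-high over Nanog-low cells for each list with at least 3 measured genes; dots are medians, lines run from the lowest to the highest member, and dotted lines mark 1.5-fold. The naive list has medians of 1.47 and 1.07 and the primed epiblast list -0.41 and -1.30; the S phase and G2/M lists lie near 0.

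X chromosome dosage moved with the Nanog classes. For each cell the UMIs of X-linked genes were divided by those of autosomal genes and set against the median of Oct4-positive cells with at least 2 UMIs of Y-linked genes. From 1.2 upward a cell counted as X-high, and otherwise as X-low, which are ranges of a score and not types. At time 1, 66.6% of Nanog-high cells were X-high (65.1 to 68.0%), 43.9% of intermediate and 35.2% of Nanog-low cells (33.9 to 36.6%). At time 2 the shares were 45.6% (44.0 to 47.2%), 9.88% and 4.75% (4.22 to 5.32%). Of feeder cells, 74.5% at time 1 and 89.3% at time 2 were X-high. Near the limit, between 1.1 and 1.3, lay 10.3% of Nanog-high and 15.0% of Nanog-low cells at time 1 and 5.53% and 8.63% at time 2. Read the other way, 23.8% of X-high and 10.1% of X-low cells were Nanog-high at time 1, and 45.2% and 8.45% at time 2. Cells with at least 2 UMIs of Y-linked genes were 6.37% of Nanog-high and 13.5% of Nanog-low cells at time 1, and 4.32% and 10.0% at time 2. Among such Oct4-positive cells 9.21% were Nanog-high and 23.5% Nanog-low at time 1, and 6.76% and 25.9% at time 2.

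Called chromosome gains moved with the classes too. A gain was called where chromosome 1, 8 or 14 took a share of a cell's autosomal UMIs at least 15% above the time 1 median for Oct4-positive cells. Gains were called in 8.83% of Nanog-high and 15.0% of Nanog-low cells at time 1 and in 75.1% and 92.0% at time 2. The same limit called gains in 32.9% of feeder cells at time 1 and 18.8% at time 2. A called gain is thus a share of RNA and not a counted chromosome. At time 1 chromosome 8 (4.35% and 11.6%) and chromosome 14 (0.696% and 1.28%) had this direction, and chromosome 1 (4.05% and 2.26%) the opposite one. Between ratios of 1.1 and 1.2 lay 16.2% of Nanog-high and 14.2% of Nanog-low cells at time 1 and 22.5% and 6.21% at time 2. Among time 2 cells without a called gain, 33.9% were Nanog-high, against 11.2% of those with one. Of time 2 cells without a called gain, 18.0% were Nanog-low, against 22.6% of those with one. Within X-low cells at time 2 the Nanog-high gap was smaller, with 11.3% among those without a gain and 8.45% among all X-low cells. The Nanog-low shares ran the other way there, at 33.1% without a gain and 24.4% among all X-low cells. X-low cells with a gain were not counted on their own.

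X-linked genes carried part of the list of higher genes. At time 1, 53 of 282 measured X-linked genes were higher in Nanog-high cells (18.8%, against 4.86% of all genes), with a median log2 ratio of 0.27. At time 2 it was 92 of 254 (36.2%, against 6.65%), with a median of 0.46. Rhox5, a homeobox gene of the X-linked reproductive cluster, was at 420 and 192 CPM at time 1 and at 287 and 73.4 CPM at time 2. Within X-low cells 10 of 245 X-linked genes (4.08%) were higher at time 1 and 14 of 223 (6.28%) at time 2, with medians of -0.004 and -0.03. Over all genes in X-low cells 1.67% were higher at time 1 and 3.63% at time 2, so X-linked genes stayed above that share. They were above the share in the other direction too, with 1.22% and 6.73% lower, against 1.06% and 2.95% of all genes. Chromosome 14 was also above the share of higher genes, at 3.16% and 5.51%. X-low cells were chosen by their summed X-linked UMIs, so medians near 0 within them are partly fixed by that choice.

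Fewer genes passed 1.5-fold within X-low cells, and the named genes kept their direction there. In X-low cells at time 1, 123 genes were higher in Nanog-high cells (1.67%) and 78 lower (1.06%), and at time 2, 257 (3.63%) and 209 (2.95%). In X-high cells the counts were 351 (4.68%) and 321 (4.28%) at time 1 and 473 (6.32%) and 734 (9.8%) at time 2. Of the listed genes past 1.5-fold, 25 of 41 were also past it within X-low cells at time 1 and 36 of 44 at time 2, against 35 of 41 and 42 of 44 within X-high cells. With classes set on thinned cells it was 23 of 41 and 34 of 44. All 24 named genes had the same direction in both dosage classes of both libraries. They passed 1.5-fold in each, except Hes6 in X-low and Etv2 in X-high cells at time 1. The 24 were chosen for their ratios over these same cells, so keeping direction in parts of them is partly fixed by that choice. The median of the naive list was 1.04 in X-low and 1.59 in X-high cells at time 1, and 0.93 and 1.38 at time 2. That of the primed epiblast list was -0.11 in X-low and -0.64 in X-high cells at time 1, and -0.80 and -0.85 at time 2. Calcoco2 was at 49.0 CPM in Nanog-high and 11.1 CPM in Nanog-low cells that were X-low at time 1, and at 222 and 24.6 CPM in those that were X-high. Whether these ratios differ between the dosage classes was not tested.

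Krt8, Krt18 and Tagln had ratios far apart between the dosage classes at time 2, a difference that was not tested. Krt8 was at 13.98 CPM in Nanog-high and 517 CPM in Nanog-low cells that were X-high, a log2 ratio of -5.11, and at 18.8 and 81.4 CPM in X-low cells, a log2 ratio of -2.06. Tagln was at 18.8 and 549 CPM in X-high and at 40.2 and 145 CPM in X-low cells. The X-high Nanog-low class at time 2 held 285 cells.

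**Figure D5:**
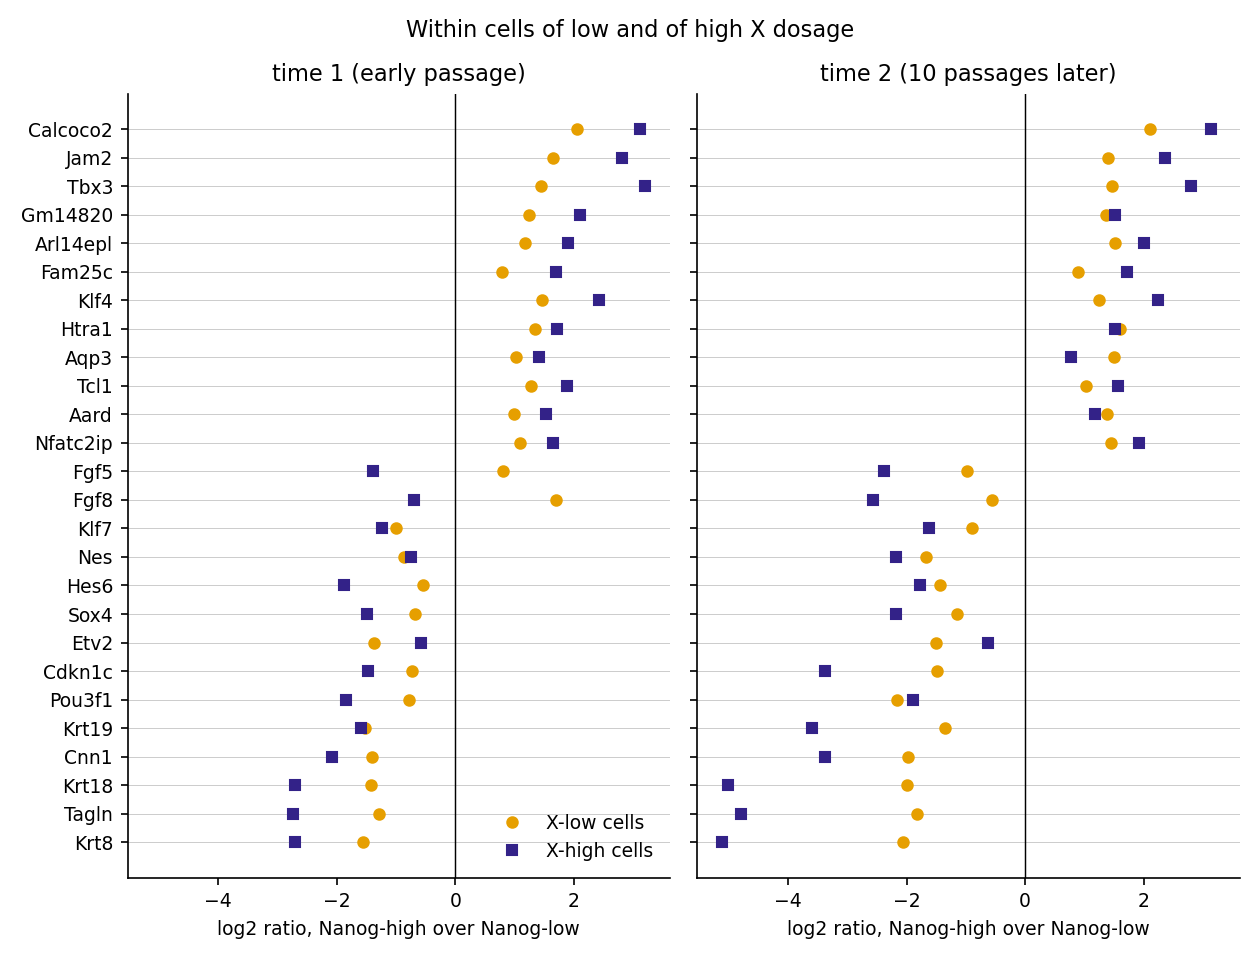
Log2 ratio of Nanog-high over Nanog-low cells (horizontal axis) for the 24 named genes and for Fgf5 and Fgf8, computed within X-low cells (circles) and within X-high cells (squares), 1 panel per library. The named genes keep 1 side of 0 in both; Fgf5 and Fgf8 lie on opposite sides of 0 at time 1, as with Fgf8 at 1.70 in X-low and -0.70 in X-high cells.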

How the data were processed

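Per the labels, capture used 10x Chromium version 3.1 chemistry, with 1 library at each time point. The deposited values are raw UMI counts for every gene in every barcode, and per the file headers the authors made them with Cell Ranger 6.1.2. The submitters' processing notes also name bcl2fastq 2.20.0.422 and the builds mm10 and GRCm38. Of 32285 genes, 32235 matched GENCODE M21 by identifier.

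Cells were selected as the report describes, on UMIs of the cell itself. Counts were summed per class and library, scaled to CPM and compared as log2 ratios with a pseudocount of 1 CPM. The named genes were the 12 highest and the 12 lowest, ranked by the smaller absolute ratio of the 2 libraries, among genes with at least 20 CPM in a class of both libraries and the same direction in both; members of 24 gene lists were named beside them. The members and lists were chosen with earlier results of these data known. Of 196 distinct listed genes, 2 (Ddit3 and Aldoa) could not be matched to 1 identifier. A member of the core pluripotency list is counted with its list and is not reported here by name. Thinning drew UMIs without replacement.

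Scrublet (scanpy 1.11.5) marked no doublet in either library at its automatic threshold, so no doublets were removed, and an alternative without the 10% highest scores was run. Other alternatives changed thresholds, thinning, scaling (edgeR 4.0.16 TMM and median-of-ratios factors), pseudocount, weighting, X dosage and gains. The ratio and its threshold were checked on simulated counts with known changes. Analyses used Python 3.11.15, numpy 2.4.6, scipy 1.17.1, pandas 2.3.3 and R 4.3.3.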

Additional observations from a re-analysis of the deposited data

Results flagged for a closer look

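Fgf8 and Fgf5, growth factors of the epiblast, had ratios of opposite sign between groups of cells, and none of these differences was tested. Fgf8 had a log2 ratio of Nanog-high over Nanog-low cells of 0.49 at time 1 and -1.20 at time 2. Within time 1, Fgf8 had a log2 ratio of 1.70 in X-low cells, at 141 and 43.0 CPM, and of -0.70 in X-high cells, at 17.1 and 28.3 CPM. Fgf5 had a log2 ratio of 0.80 in X-low cells at time 1, at 43.9 and 24.8 CPM, and of -1.39 in X-high cells, at 6.57 and 18.8 CPM. At time 2 both genes had negative ratios in both dosage classes, from -0.55 for Fgf8 in X-low cells to -2.57 for Fgf8 in X-high cells. The lines that make up each dosage class could not be told apart from dosage.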

How the results depend on the processing

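All 24 named genes kept their direction in both libraries under the 15 alternatives that recompute log2 ratios, and passed 1.5-fold in all of these except Hes6 at time 1 in X-low cells, with and without gains, and Etv2 at time 1 in X-high cells. The named genes were chosen for their ratios in these same cells, so their kept direction is partly fixed by that choice. The cause of the changes below was not tested, except where an alternative itself sets the number of genes or cells counted. Genes at least 1.5-fold higher and lower numbered 168 and 64 at time 1 and 251 and 134 at time 2 when classes were set on cells thinned to 18000 UMIs. They numbered 575 and 476, and 755 and 502, with limits of 300 and 20 CPM. With a minimum of 50 CPM they numbered 131 and 77, and 166 and 72, with no minimum 759 and 667, and 959 and 771, and at 2-fold 124 and 64, and 158 and 97. In X-low cells they numbered 123 and 78 at time 1 and 257 higher at time 2, and in X-low cells without gains 113 and 74 at time 1 and 552 lower at time 2. At time 2 the lower genes numbered 734 in X-high cells and 722 in cells without gains. With the class from one set of UMIs and the level from the other, 167 and 186 genes were lower; weighting cells equally gave 168 lower at time 1 and a pseudocount of 5 CPM gave 177.

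After thinning, Nanog-high cells made up 20.2% (time 1) and 17.6% (time 2) of Oct4-positive cells and Nanog-low cells 22.0% and 24.95%. With limits of 300 and 20 CPM the shares were 5.57% and 4.71% high and 10.0% and 10.6% low. In X-low cells they were 10.1% and 8.45% high and 23.7% and 24.4% low, and in X-high cells 23.8% and 45.2% high and 15.2% and 7.77% low. In cells without gains they were 16.9% and 33.9% high and 19% and 18.0% low, and in X-low cells without gains 10.4% and 11.3% high and 23.0% and 33.1% low. With at least 30 Pou5f1 UMIs, Nanog-high cells were 17.0% at time 1 and Nanog-low cells 18.3% and 19.8%. Without cells that carried at least 10 UMIs of other lineage lists, Nanog-high cells were 15.2% at time 1 and Nanog-low cells 21.5% and 23.9%. With at least 40000 UMIs, Nanog-high cells were 15.9% at time 1 and Nanog-low cells 19.9% at time 2, and without the highest Scrublet scores Nanog-low cells were 23.3% at time 2.

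The median log2 ratio of the naive list stayed above 0. It was 0.99 at time 1 and 0.73 at time 2 after thinning, 1.86 and 1.28 with limits of 300 and 20 CPM, 1.04 and 0.93 in X-low cells, 1.59 and 1.38 in X-high cells, and 1.00 and 1.69 in X-low cells without gains. It was 1.28 and 0.86 with separate UMIs for class and level, 1.28 and 0.94 with a pseudocount of 5 CPM, 1.35 and 1.01 without cells of other lineage genes, and 1.90 at time 2 in cells without gains. At time 1 it was 1.60 with at least 40000 UMIs, 1.52 with at least 30 Pou5f1 UMIs and 1.31 with equal weights.

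Among listed genes past 1.5-fold, 5 changed sign; listed genes short of 1.5-fold that crossed 0 are not counted here. At time 1 Egr1 was at 0.077 and Fos at 0.058 in X-low cells, and at 0.016 and 0.063 in X-low cells without gains. At time 2 Col4a1 was at 0.42 without cells of other lineage genes, Lefty2 at -0.11 in X-low cells and -0.53 in those without gains, and Tfap2c at -0.00026 in X-high cells. The alternatives in X-low cells without gains and without the highest Scrublet scores were chosen after seeing the data; removing Scrublet's own doublets was not run, since none were marked. Ratios were taken within each library, and no paired test over the 2 libraries was run, since measured Nanog chose the classes and each time point is 1 library. Depth limits genes below 10 CPM, and 1 library per time point leaves the spread between cultures unknown.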
